A study of Mus musculus with 2 samples.

Results

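The Pdcd1lg2-positive cells of inflamed mouse ear skin were 279 of the 8359 cell barcodes kept from 1 single-cell cDNA library, or 3.34% of them. They were also 16.9% of the 1648 cells of the monocyte and macrophage lineage (Mo-Mac cells) in that library. They were chosen on measured reads. A barcode was kept with at most 20% mitochondrial reads and at least 200 genes, and it was a Mo-Mac cell if Csf1r, Cd68, Ms4a6c and Ms4a7 summed to at least 300 CPM (reads of a gene scaled to 1000000 reads of the barcode), with Col1a1 under 3000 CPM and S100a8 and S100a9 together under 5000 CPM. Of these, the cells with Pdcd1lg2 at 50 CPM or more and Gpnmb under 50 CPM were taken. The levels of all these genes in the cells are therefore a description and were not tested. The nearest Pdcd1lg2 levels inside the limit were 50.1, 54.6 and 55.1 CPM, and the nearest outside were 49.9, 48.7 and 48.5 CPM. For Gpnmb the nearest level inside was 47.4 CPM and the nearest outside was 67.5 CPM.

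Pdcd1lg2 encodes PD-L2, a surface ligand of the inhibitory receptor PD-1 that macrophages and dendritic cells make when interleukin-4 or interleukin-13 signals through IL-4Rα and the transcription factor STAT6. The same signal is known to raise Arg1 (arginase 1, which breaks down arginine), Chil3 (the secreted chitinase-like protein Ym1), Ccl24 (eotaxin 2, a chemokine for eosinophils), Mrc1 (the mannose receptor CD206) and Retnla (the secreted protein RELMα), a state named alternative activation. In allergic skin, circulating Ly6C-high monocytes enter through the chemokine receptor CCR2 and can mature into such macrophages. Ddx4, which encodes the RNA helicase VASA, is known as a germ line gene.

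STAT6 is known to bind a palindrome of TTC and GAA with 4 bases between them, so the promoters were searched for it. Pdcd1lg2 lies at chr19:29410919-29471161 on the plus strand of GRCm38. Its promoter in RefSeq (GRCm38.p6, chr19:29410669-29410968, plus strand) held 1 match, 82 bases before the annotated start. The Retnla promoter (chr16:48842359-48842658, plus strand) held 1 match, 145 bases before the start. The Ddx4 promoter (chr13:112652261-112652560, minus strand) held none. These are shown because Pdcd1lg2 chose the cells and because Retnla and Ddx4 varied between the pools, as described below. Each runs 5′ to 3′ from 250 bases before to 50 bases after the start, and capitals mark the match to the palindrome.
Pdcd1lg2: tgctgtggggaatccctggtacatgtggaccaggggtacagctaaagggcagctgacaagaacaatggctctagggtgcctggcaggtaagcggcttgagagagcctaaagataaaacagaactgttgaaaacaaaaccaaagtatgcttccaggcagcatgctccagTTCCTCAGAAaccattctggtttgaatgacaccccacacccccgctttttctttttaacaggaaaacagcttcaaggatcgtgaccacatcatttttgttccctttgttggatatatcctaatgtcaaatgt
Retnla: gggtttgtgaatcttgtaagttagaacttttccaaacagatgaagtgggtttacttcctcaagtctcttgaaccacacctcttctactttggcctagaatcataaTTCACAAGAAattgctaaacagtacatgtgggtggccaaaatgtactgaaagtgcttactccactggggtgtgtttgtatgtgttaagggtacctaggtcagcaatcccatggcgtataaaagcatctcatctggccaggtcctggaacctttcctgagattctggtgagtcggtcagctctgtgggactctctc
Ddx4: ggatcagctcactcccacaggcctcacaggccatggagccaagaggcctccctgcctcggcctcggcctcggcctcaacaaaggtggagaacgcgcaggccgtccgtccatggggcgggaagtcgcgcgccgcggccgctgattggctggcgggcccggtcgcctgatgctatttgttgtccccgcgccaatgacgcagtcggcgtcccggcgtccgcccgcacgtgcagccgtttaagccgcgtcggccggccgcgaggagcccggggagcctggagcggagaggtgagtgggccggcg
The palindrome reads the same on both strands, and 6.95% of all 32851 promoters of this length in the table held it. The promoters of Chil3, Mrc1, Cish, Il4ra, Ccl8 and Gja1 held no match in this window, and Arg1, Ccl24 and Socs2 have no entry in the table. Of the 20 listed IL-4 and STAT6 response genes, 15 had a promoter there and 2 of these, Retnla and Ccl17, held a match. A match in letters does not show binding.

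Cells came from the ears of male BALB/c mice aged 7 to 12 weeks, wild-type (WT) or Ccr2-/-, in IgE-dependent chronic allergic inflammation (IgE-CAI). Every pool was sensitised with an intravenous dose of 300 µg anti-TNP IgE and challenged in the ear with 10 µg TNP-OVA, and ears were collected on day 3 or day 5. Each combination of genotype and day was 1 pool marked with its own hashtag antibody, and the number of mice in a pool is not stated. The 4 pools were therefore the units compared, and no combination had a second pool. In the Ccr2-/- mice the receptor is missing from all cells and not from monocytes alone.

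A pool could be given to 265 of the 279 cells. In WT 125 were from day 3 and 66 from day 5, and in Ccr2-/- 41 were from day 3 and 33 from day 5. The reads of these cells summed to between 2202669 and 9381804 per pool, with medians of 3720 to 4262 genes per cell. The Pdcd1lg2-positive cells were read more deeply than the other Mo-Mac cells, with a median of 63587 against 41871 reads, and a Pdcd1lg2 limit is easier to pass with more reads. The deposited values are reads and not molecules, so the intervals below cover counting error only. Reads of Ccr2, the deleted gene, were at 482 CPM in the WT day 3 cells, 893 CPM in WT day 5, 163 CPM in Ccr2-/- day 3 and 59.0 CPM in Ccr2-/- day 5. Ccr2 was thus lower in both Ccr2-/- pools but not at 0, and 1 cell held 61.1% of its reads in the Ccr2-/- day 3 pool.

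Markers of other cell types were present at low levels. The 6 fibroblast markers summed to 889 to 1223 CPM over the 4 pools, and to 1065 to 1217 CPM in the Mo-Mac cells that had little Pdcd1lg2, Gpnmb and Ly6c2. The 7 neutrophil markers summed to 214 to 427 CPM, the 9 dendritic cell markers to 209 to 778 CPM, the 3 Langerhans cell markers to 19.6 to 294 CPM, the 4 endothelial markers to 36.1 to 172 CPM and the 4 keratinocyte markers to 4.09 to 100.3 CPM. Mast cell markers reached at most 45.0 CPM, T and NK cell markers at most 28.6 CPM and B cell markers at most 13.3 CPM, with Cd79a at 0. Eosinophil markers stayed at or below 2.27 CPM and Siglecf, Prg2 and Epx were at 0. The 5 basophil markers went with genotype, at 5.01 and 7.05 CPM in the WT pools and 294 and 427 CPM in the Ccr2-/- pools.

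Pdcd1lg2-positive cells were found in all 4 pools. Of the Mo-Mac cells they were 21.3% in WT day 3 (125 of 587, 95% Clopper-Pearson interval 18.1 to 24.8%), 12.5% in WT day 5 (66 of 529, 9.78 to 15.6%), 18.2% in Ccr2-/- day 3 (41 of 225, 13.4 to 23.9%) and 14.9% in Ccr2-/- day 5 (33 of 221, 10.5 to 20.3%). Both genotypes had the lower share on day 5. The day 5 share was lower by 8.82 points in WT (difference -8.82 points, 95% interval -13.1 to -4.43) and by 3.29 points in Ccr2-/- (difference -3.29, interval -10.2 to 3.66), and neither was tested because each day had 1 pool. Mo-Mac cells with at least 10000 reads were also thinned to 10000 reads, which left out 50, 32, 38 and 46 cells in the same order. Of the thinned cells, those with a Pdcd1lg2 read and no Gpnmb read made up 17.7, 12.7, 18.2 and 15.4%. This limit is not the 50 CPM limit used elsewhere.

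The genotypes had nearly the same mean share of Mo-Mac cells, 16.9 ± 6.23% in WT and 16.6 ± 2.33% in Ccr2-/- (SD, n = 2 pools). The 2 pools of a genotype are its days 3 and 5, so this SD holds the difference between days. The difference of 0.308 points gave p = 1.0 in an exact two-sided permutation test, which cannot go below 0.3333 with 2 pools against 2. As a share of all kept cells, the Pdcd1lg2-positive cells were 7.75% on day 3 and 6.05% on day 5 in WT but 1.80% and 1.31% in Ccr2-/- (exact permutation p = 0.3333, the smallest possible). The Mo-Mac cells as a whole made up 36.4 and 48.5% of kept WT cells on those days, against 9.89 and 8.76% of kept Ccr2-/- cells. The pools did not overlap by genotype in either share of all kept cells.

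**Figure D1:**
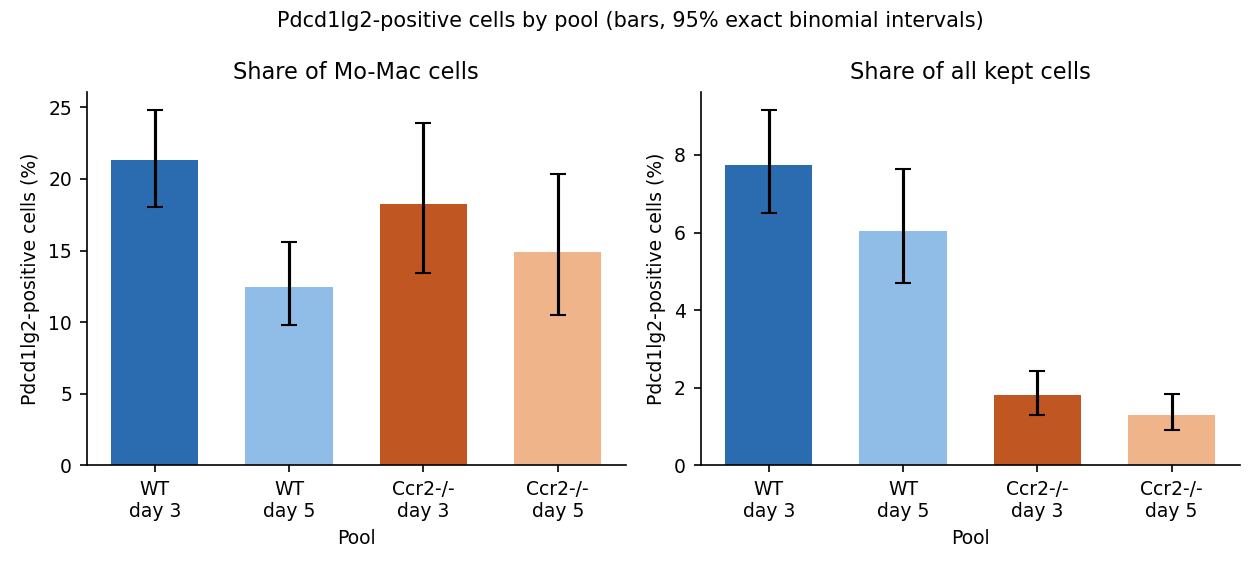
Share of Pdcd1lg2-positive cells per pool, in percent of Mo-Mac cells (left) and of all kept cells (right). Bars are pools and lines are 95% exact binomial intervals. The WT bars stand above the Ccr2-/- bars on the right (7.75 and 6.05 against 1.80 and 1.31%), and the intervals of the genotypes overlap on the left.

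Pdcd1lg2 itself, which chose the cells, was at a median of 203 CPM per cell and reached 3927 CPM. It rested on a median of 13 reads. The level was supported by 10 or more reads in 183 cells and by 1 read in 5 cells. Of the Gpnmb-negative Mo-Mac cells below the limit, 1230 had no Pdcd1lg2 read and 89 had some. In the summed reads of the pools Pdcd1lg2 was at 274, 205, 216 and 289 CPM (WT on days 3 and 5, then Ccr2-/- on days 3 and 5, the order used wherever 4 values are given below). Cd274, which encodes PD-L1, the other ligand of PD-1, was at 100.1, 124, 126 and 123 CPM, and 40.9% of the cells had 50 CPM or more. Cells with both Pdcd1lg2 and Gpnmb at 50 CPM or more numbered 9. They were left out by the rule and belong to the Gpnmb-positive cells described below.

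Of the alternative activation genes, Mrc1, Arg1 and Ccl24 were found in most Pdcd1lg2-positive cells and Chil3 and Retnla in a minority. Mrc1 was at 50 CPM or more in 264 of 279 cells (94.6%), Arg1 in 210 (75.3%), Ccl24 in 198 (71.0%), Chil3 in 125 (44.8%) and Retnla in 83 (29.8%). Arg1, Ccl24, Chil3 and Ddx4 had been picked as markers of these cells with earlier results of the same data in view, so their presence is not independent evidence. In 2675 cells with Col1a1 at 3000 CPM or more, which are fibroblast-type cells and should lack these genes, 5.87% reached 50 CPM of Mrc1, 2.17% of Arg1, 1.35% of Ccl24 and 1.27% of Chil3, at a median of 80384 reads. The shares in the Pdcd1lg2-positive cells lay above that background. The other 1369 Mo-Mac cells, which were read less deeply, are closer in type. Of these, 77.1% reached 50 CPM of Mrc1, 33.6% of Arg1, 40.5% of Ccl24, 23.6% of Chil3 and 24.8% of Retnla.

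Levels differed between pools and genes. Mrc1, the most even of them, was at 4967, 2734, 4078 and 3838 CPM. Arg1 (chr10:24915221-24927484, minus strand) was at 2236, 2496, 3937 and 1705 CPM, highest in Ccr2-/- day 3. Ccl24 (chr5:135569937-135573049, minus strand) was at 579 and 377 CPM in the WT pools and at 1684 and 1484 CPM in the Ccr2-/- pools, so the genotypes did not overlap. The share of cells at 50 CPM or more of Ccl24 overlapped between genotypes, at 80.0, 53.0, 75.6 and 66.7%. Chil3 (chr3:106147554-106167564, minus strand) split by day, at 1104 and 1194 CPM in the day 3 pools against 255 and 184 CPM in the day 5 pools. Retnla split by genotype, at 3021, 3114, 785 and 181 CPM. In WT day 5, however, 1 cell held 43.3% of its reads, and in Ccr2-/- day 3, 1 cell held 52.3%. With 1 pool for each genotype and day, splits like those of Ccl24, Chil3 and Retnla can easily arise by chance. The share of all genes that split in the same way was not counted. These splits are therefore a description of the pools and not a result about genotype or day. Il4ra, the receptor chain for interleukin-4 and interleukin-13, was at 1082, 336, 1055 and 757 CPM and was lowest in WT day 5.

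**Figure D2:**
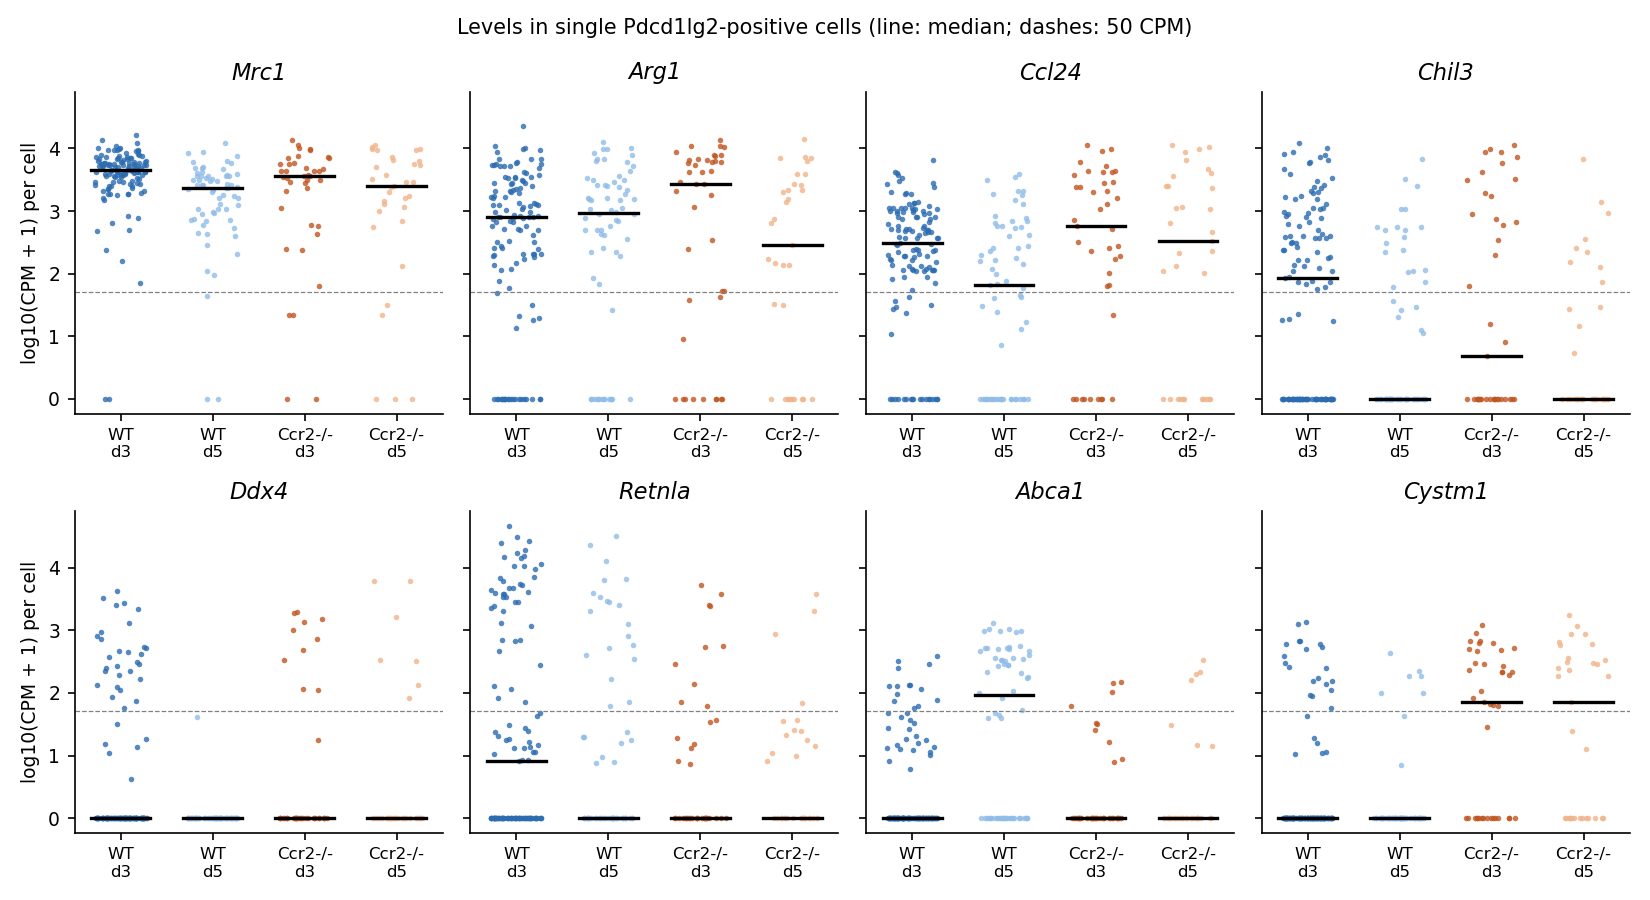
Level of 8 genes in single Pdcd1lg2-positive cells by pool, as log10 of CPM plus 1. Each point is a cell, thick lines are medians and the dashed line is 50 CPM. Mrc1 is at 50 CPM or more in 84.9 to 98.4% of the cells of each pool, Ddx4 points are nearly absent from WT day 5 (0 of 66 cells at 50 CPM or more), Abca1 points are most frequent in WT day 5 (53.0% at 50 CPM or more) and the Cystm1 medians are above 0 in the Ccr2-/- pools only.

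Ddx4 marked a minority of the cells in 3 of the 4 pools. It lies at chr13:112598333-112652475 on the minus strand, and its promoter is printed above. It was at 201 CPM in WT day 3, 2.35 CPM in WT day 5, 256 CPM in Ccr2-/- day 3 and 267 CPM in Ccr2-/- day 5. It reached 50 CPM in 29 of 125 cells (23.2%), 0 of 66, 10 of 41 (24.4%) and 7 of 33 (21.2%). The 0 in WT day 5 allows a share of up to 5.44% by the exact interval, and all 11 reads of that pool came from 1 cell. Cells with a Ddx4 read had a median of 22 reads and at most 426. The Pdcd1lg2-positive cells held 58.3% of all Ddx4 reads of the kept cells, and a read was found in 21.5% of them (16.8 to 26.8%), in 4.02% of the other Mo-Mac cells and in 2.47% (1.91 to 3.13%) of the fibroblast-type cells.

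The other germ line genes were nearly silent. Of 12 listed partners of Ddx4, 11 were in the matrix and 8 had no read in the Pdcd1lg2-positive cells with a pool, among them Dazl, Mael and Piwil1. The other 3 summed to 234 reads against 3338 reads of Ddx4. Piwil2, a PIWI protein of the germ line, accounted for 222 of them in 26 cells and reached 44.0 CPM in Ccr2-/- day 5. All 51 cells at 50 CPM or more of Ddx4 also had Mrc1 at that level, 47 had Arg1, 50 had Gja1 (connexin 43) and 0 had Timd4. The reads cannot tell full-length Ddx4 transcripts from fragments.

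The cells were not uniform. All of Arg1, Chil3 and Ccl24 reached 50 CPM in 95 of 279 cells (34.1%), 2 of them in 98, 1 of them in 52 and none in 34 (12.2%). Cells with all of them were 43.2 and 43.9% of the day 3 pools and 12.1 and 24.2% of the day 5 pools. Across the 279 cells, which share 1 library and differ in depth, log levels of Arg1 went with those of Gja1 (r = 0.49), Mrc1 (r = 0.47), Fn1 (r = 0.46, fibronectin) and Ccl24 (r = 0.41), and against those of Timd4 (r = -0.39) and Flt3 (r = -0.37). Ly6c2, the gene of the monocyte antigen Ly6C, reached 50 CPM in 97 cells (34.8%), in 51.2% of WT day 3 cells but 13.6% of WT day 5 cells.

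A smaller set of the cells had at least 1 of 3 genes known from dendritic cells. Flt3 (the receptor of FLT3 ligand), Ccr7 (the lymph node homing receptor) or Il4i1 (an amino acid oxidase) was at 50 CPM or more in 44 cells (15.8%), namely 14, 15, 9 and 4 in the pools and 2 without a pool. Il4i1 reached this level in 36 cells, Flt3 in 18 and Ccr7 in 9, so the set rested mostly on Il4i1. Of the other dendritic cell markers, Cd209a reached 50 CPM in 45.5% of the 44 cells and Cacnb3 in 15.9%. Ccl22 reached it in 11.4%, Zbtb46 in 9.09%, Fscn1 in 6.82% and Xcr1 in 4.55%. The label of macrophage is therefore not settled by markers for all cells. Arg1 reached 50 CPM in 45.5% of the 44 cells and in 80.9% of the other 235. The MHC class II gene H2-Ab1 was at 7391 against 2017 CPM and Timd4 (the phosphatidylserine receptor TIM-4) at 374 against 16.1 CPM in their summed reads. Mrc1 was still at 50 CPM or more in 86.4% of the 44 cells. Of the 22 cells with Timd4 at 50 CPM or more, 13 had Flt3 and 0 had Chil3. These cells were set apart after the data were seen for their genes, so none of this was tested.

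**Figure D3:**
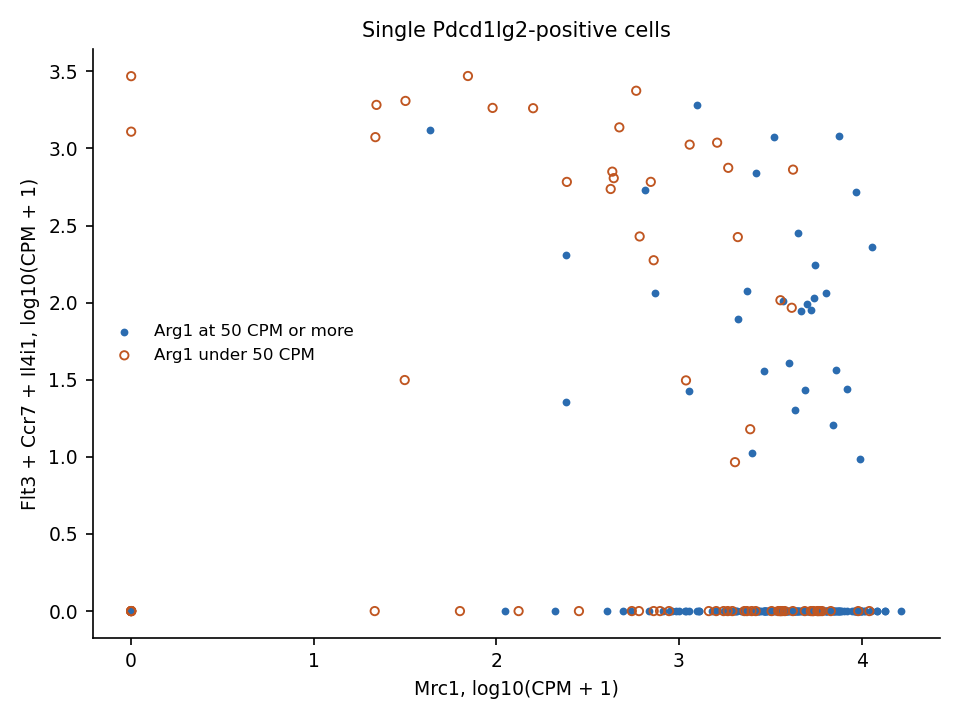
Mrc1 (horizontal axis) against the sum of Flt3, Ccr7 and Il4i1 (vertical axis) in single Pdcd1lg2-positive cells, both as log10 of CPM plus 1. Filled points have Arg1 at 50 CPM or more and open points have less. Most cells lie at 0 on the vertical axis, and the points at the upper left, with little Mrc1, are mostly open.

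To see what sets the cells apart, their summed reads were compared with those of the other Mo-Mac cells of the same pools. The first comparison was with Ly6c2-high cells, which had Ly6c2 at 500 CPM or more, Pdcd1lg2 under 50 CPM and Gpnmb under 50 CPM and numbered 105, 16, 16 and 15. This group was mixed. Siglech or Ccr9, markers of plasmacytoid dendritic cells, were at 50 CPM or more in 7, 6, 8 and 8 of the Ly6c2-high cells and in 3, 1, 2 and 2 of the Pdcd1lg2-positive cells. The number of calls and most single genes are therefore also given without such cells and with sums of at least 5 cells. This setting was chosen after the data were seen and left 98, 10, 8 and 7 Ly6c2-high cells. The calls counted for each gene list below include such cells.

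Of 17143 genes tested, 245 were higher (1.43%) and 154 lower (0.898%) in the Pdcd1lg2-positive cells by edgeR's quasi-likelihood test with Benjamini-Hochberg adjustment. Without the Siglech or Ccr9 cells 4 were higher and 9 lower, and 12 of these 13 were among the 399. The median fitted log2 fold change of all genes was 0.24 and became 0.02 when the libraries were scaled by size only, which gave 173 higher and 250 lower, so folds below are best read against that shift.

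Of the 12 genes called with and without the Siglech or Ccr9 cells, Mrc1, Gja1 and Dab2 were higher and the other 9 lower in the Pdcd1lg2-positive cells. Mrc1 was at 4967, 2734, 4078 and 3838 CPM in the Pdcd1lg2-positive cells and at 1222, 612, 1634 and 417 CPM in the Ly6c2-high cells. Mrc1 did not overlap between the populations, and its log2 fold change was 2.35 (edgeR adjusted p = 0.00139, or 9.9e-05 without those cells). Gja1, whose product forms gap junctions, was at 1299, 292, 989 and 605 CPM against 311.4, 29.3, 288 and 57.3 CPM (log2 fold change 2.72, edgeR adjusted p = 0.00186 and 0.0327). Mrc1, Gja1 and Ifitm6 (below) passed under all 17 alternatives. Dab2, an endocytic adaptor, was higher by a log2 fold change of 1.99 (edgeR adjusted p = 0.0052 and 0.00899), but missed the threshold without WT day 5 (0.0653). Fabp5, a fatty acid binding protein, missed the threshold with the Siglech or Ccr9 cells and passed without them (edgeR adjusted p = 0.0541 and 0.0119), and over all alternatives its adjusted p ran from 0.000917 to 0.195.

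Lyz2, the lysozyme of myeloid cells, was at 1211, 1862, 551 and 364 CPM in the Pdcd1lg2-positive cells and 9642, 4094, 3615 and 3232 CPM in the Ly6c2-high cells. It was lower in all 4 pools (log2 fold change -2.27, edgeR adjusted p = 0.00751, or 0.000185 without the Siglech or Ccr9 cells), and missed the threshold without Ccr2-/- day 3 (0.0718). Ifitm6, an interferon-inducible membrane protein of monocytes, was at 29.5, 10.9, 4.20 and 4.99 CPM against 481, 240, 144 and 167 CPM (log2 fold change -4.36, edgeR adjusted p = 0.000231 and 0.000806). Its log2 ratio varied little, at -4.48 ± 0.40 (SD, n = 4 pools). Ly6c1, Lyz1, Mpeg1 (perforin 2), Cybb (a subunit of the phagocyte oxidase), Fpr2 (a formyl peptide receptor), Ifitm3 and Smpdl3a were also lower in both settings, with log2 fold changes from -1.28 for Ifitm3 to -3.71 for Ly6c1. Ly6c1 is of the same gene family as Ly6c2, which chose the Ly6c2-high cells, so its call is not independent of that choice. Those of the 13 that are on no list and not among the largest folds were named after their values were seen. Plac8 fell by 3.87 on the log2 scale (edgeR adjusted p = 8.0e-05) and missed the threshold without those cells (0.0834).

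Other alternative activation genes than Mrc1 passed, where they did, only with the Siglech or Ccr9 cells included. Arg1 was at 442, 43.1, 212 and 773 CPM in the Ly6c2-high cells and its log2 fold change was 3.30 (edgeR adjusted p = 0.0192, or 0.299 without the Siglech or Ccr9 cells). It also missed the threshold without WT day 5 (0.0766) and without Ccr2-/- day 3 (0.15). Without the Siglech or Ccr9 cells, Arg1 was at 2998 CPM in the 7 Ly6c2-high cells of Ccr2-/- day 5. Of the 20 IL-4 and STAT6 response genes, 2 were called higher and 0 lower, Mrc1 and Rnase2a (an eosinophil-type ribonuclease), with a median log2 fold change of 1.44. Chil3 had a log2 fold change of 1.62 (edgeR adjusted p = 0.0304 and 0.782), Ccl24 of 2.26 (0.128 and 0.541), Ddx4 of 2.41 (0.163 and 0.542) and Retnla of 2.85 (0.0718 and 0.581). Il4ra was higher in all 4 pools (log2 fold change 1.62, edgeR adjusted p = 0.00637 and 0.272), and so was Socs2, a feedback inhibitor of cytokine signals (3.05, 0.00165 and 0.272), with a log2 ratio of 2.72 ± 0.14 (SD, n = 4 pools).

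**Figure D4:**
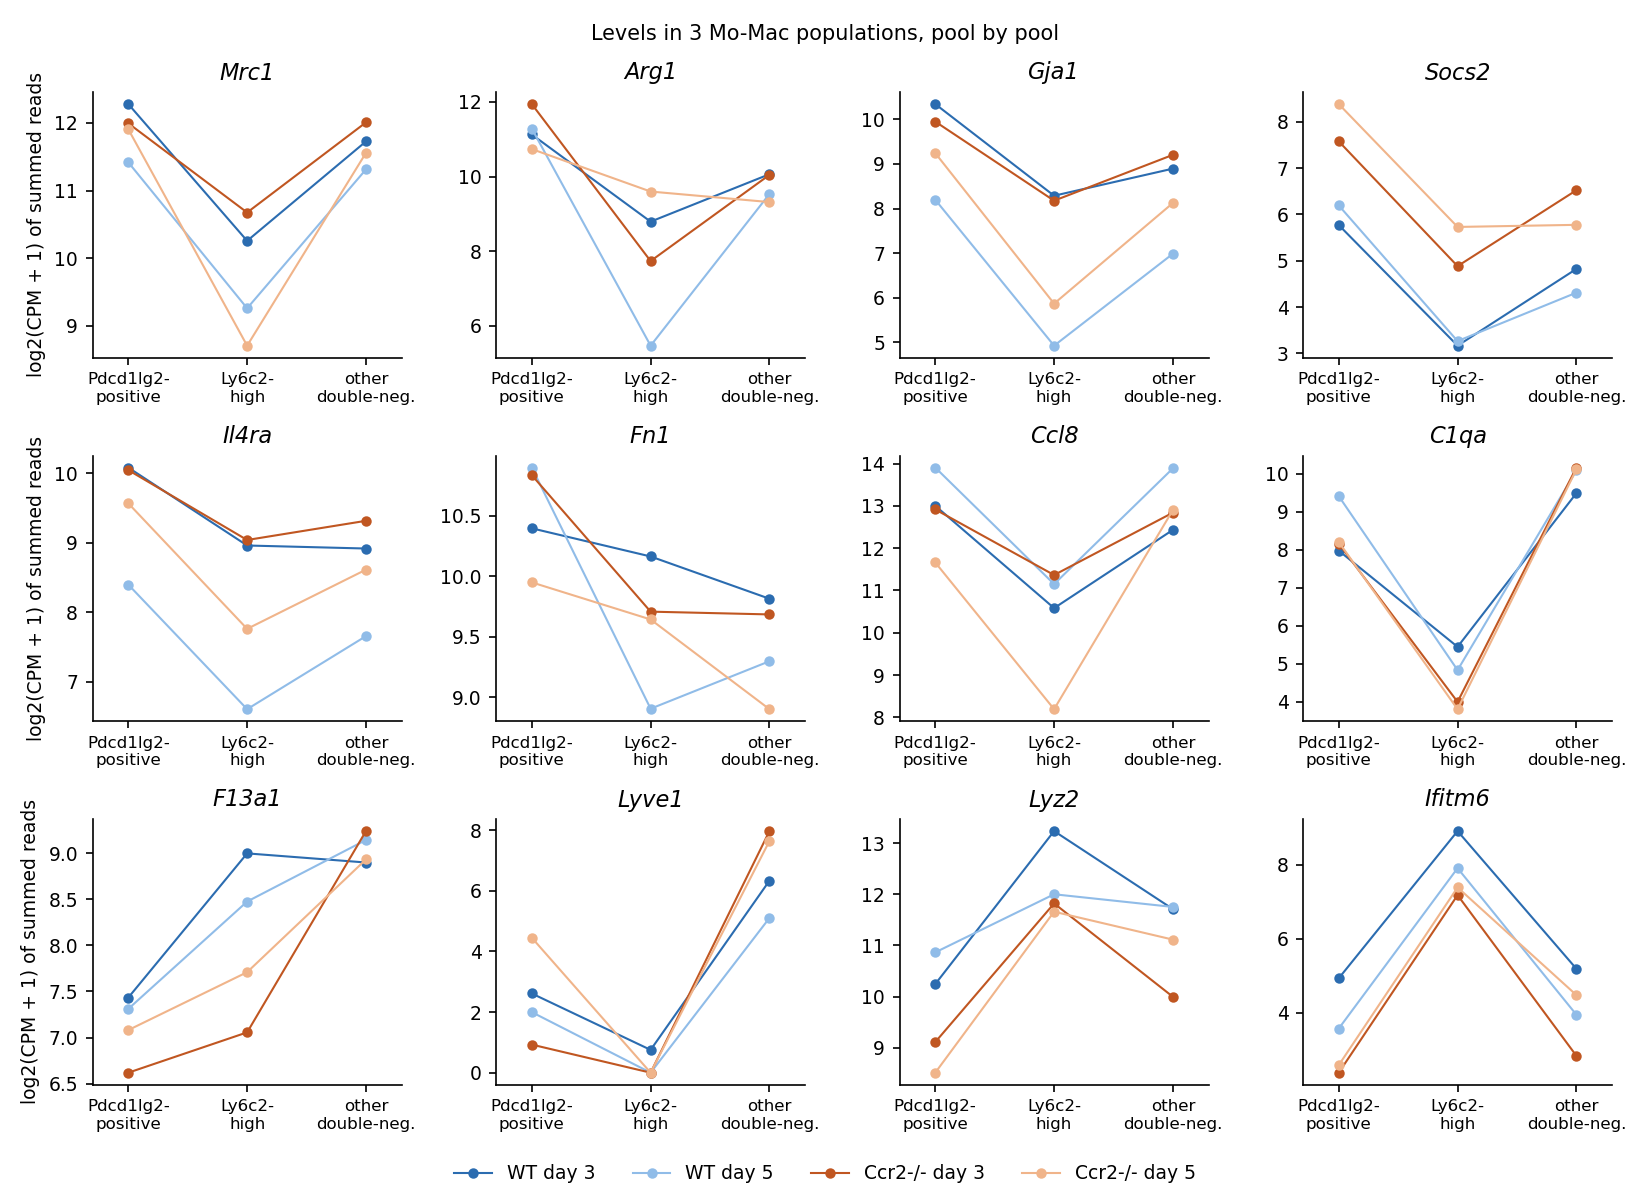
Levels of 12 genes in the summed reads of 3 Mo-Mac populations, as log2 of CPM plus 1 on axes that do not start at 0. Each line joins the populations of 1 pool. Mrc1, Gja1 and Socs2 are lowest in the Ly6c2-high cells in all 4 pools, Lyz2 and Ifitm6 are higher in the Ly6c2-high than in the Pdcd1lg2-positive cells in all 4 pools, and F13a1 and Lyve1 are lower in the Pdcd1lg2-positive than in the other double-negative cells.

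Several lists of macrophage genes held calls in 1 direction against the Ly6c2-high cells. Of 11 tested genes of mature macrophages, 7 were called higher and 0 lower (among them Maf, C1qa, C1qb, C1qc, Cd63 and Ms4a4a), with a median log2 fold change of 1.75. C1qa, a chain of complement C1q, was at 250, 677, 285 and 293 CPM against 42.6, 27.6, 15.0 and 13.02 CPM (log2 fold change 3.93, edgeR adjusted p = 0.00106, or 0.156 without the Siglech or Ccr9 cells). Resident skin macrophage genes counted 5 higher of 10, efferocytosis genes 4 of 14, lipid handling genes 4 of 15 (Trem2, Plin2, Lgals3 and Hilpda) and chemokines 6 of 16 with Ccl4 lower. These counts are not independent, since the lists share genes. The efferocytosis calls C1qa, Trem2 and Timd4 also counted in the mature, lipid handling and resident lists, and Ccl8 in the resident and chemokine lists. Timd4 was at 374 CPM in the 44 Pdcd1lg2-positive cells with Flt3, Ccr7 or Il4i1 and at 16.1 CPM in the other 235. Ccl8, a chemokine of skin macrophages, was at 8209, 15355, 7733 and 3240 CPM against 1533, 2273, 2638 and 292 CPM (log2 fold change 2.62, edgeR adjusted p = 0.0102 and 0.361). Ccl8 missed the threshold without WT day 5 (0.107), and 64.5% of the fibroblast-type cells also had it at 50 CPM or more, against 76.0% of the Pdcd1lg2-positive cells. Ccl7, a ligand of CCR2, had a log2 fold change of 1.75 (edgeR adjusted p = 0.000815 and 0.364).

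The remaining lists held calls in both directions, few calls or none. Among the monocyte genes 1 was higher (Fn1) and 4 lower (among them Ly6c2, which defines the other group, Plac8 and Cd14). Type I interferon response genes counted 0 higher and 2 lower of 12 (Ifitm6 and Ifi44), with a median log2 fold change of -0.90, and interferon-gamma response genes counted 0 of 12. Oxidative phosphorylation had 5 higher and 1 lower of 100, arginine and polyamine genes 2 higher of 12 (Odc1, the first enzyme of polyamine synthesis, and the arginine transporter Slc7a2), type 2 cytokine receptors 1 of 11 (Il4ra), repair factors 1 of 14 (Fn1) and glycolysis and hypoxia genes 1 of 15 (Eno1). The 7 MHC class II genes, 12 cell division genes, 12 inflammatory mediators and 12 PD-1 ligand and checkpoint genes had 0 calls in either direction. Of the 13 genes called without the Siglech or Ccr9 cells, 3 were on these lists, Mrc1, Ifitm6 and Fabp5. In that setting the median log2 fold change was 1.23 for mature macrophage, 1.95 for resident, 1.57 for efferocytosis and 1.01 for lipid handling genes. For chemokines it was 1.24 and for monocyte genes -2.07, beside 0.39 for all genes. Type I interferon response genes had -1.09 and PD-1 ligand and checkpoint genes -0.01.

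**Figure D5:**
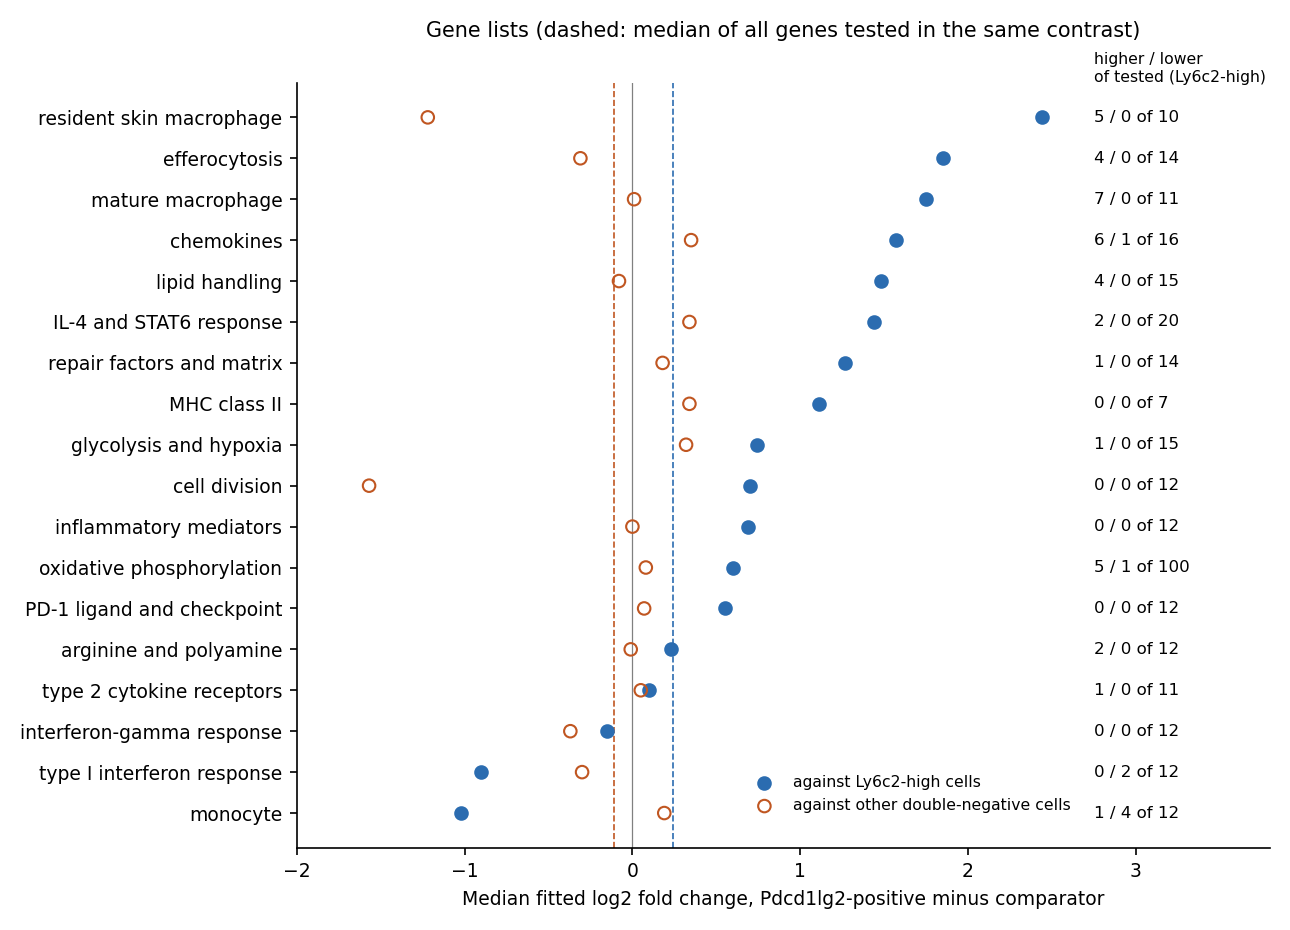
Median fitted log2 fold change of each gene list in the Pdcd1lg2-positive cells against Ly6c2-high cells (filled) and against other double-negative cells (open), with dashed lines at the median of all genes tested (0.24 and -0.11). Numbers at the right count the genes higher and lower against Ly6c2-high cells of those tested. The filled points for the macrophage lists lie to the right and those for monocyte and type I interferon genes to the left, and cell division and resident macrophage genes have the lowest open points.

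Among the genes with the largest folds, the higher side held Mmp9 (a gelatinase), Enpp2 (autotaxin), Timd4, C1qa, Rnase2a, Arg1, Stab1 (stabilin 1, a scavenger receptor), C1qc, Cyp26b1 (which degrades retinoic acid) and Npl. Several rested on few cells. Mmp9 was at 3.73, 54.3, 65.2 and 190 CPM and at 0, 0, 0 and 7.81 CPM in the Ly6c2-high cells, and 1 cell held 94.3% of its reads in WT day 3. Enpp2 was at 306, 479, 235 and 30.0 CPM against 10.3, 1.72, 27.0 and 7.81 CPM. Cyp26b1 was at 60.5, 9.41, 451 and 297 CPM, low in both WT pools. None of the 10 passed without the Siglech or Ccr9 cells and with sums of at least 5 cells, where edgeR adjusted p ran from 0.156 for C1qa to 0.442 for Npl. With sums of at least 10 cells, which left Ly6c2-high cells of WT only, C1qa (0.0372) and Mmp9 (0.0471) passed. The lower side included Siglech, Ccr9, Klk1, Iglc3, Il12a, Cox6a2, Pacsin1, Slco4a1 and Sh3bgr, of which Siglech and Ccr9 define the cells in question. Siglech was at 1.81, 0, 3.60 and 5.90 CPM in the Pdcd1lg2-positive cells and 74.3, 596, 968 and 1070 CPM in the Ly6c2-high cells.

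The second comparison was with the other double-negative cells, which had Pdcd1lg2 and Gpnmb under 50 CPM and Ly6c2 under 500 CPM and numbered 349, 418, 163 and 170. Of 17143 genes 0 differed (0.0%) by edgeR's quasi-likelihood test with Benjamini-Hochberg adjustment, with 933 at an unadjusted p under 0.05, a lowest adjusted p of 0.18, and 116 genes called by DESeq2. The values of single genes are therefore given without a call. Arg1 was at 1068, 739, 1055 and 636 CPM in these cells and higher in the Pdcd1lg2-positive cells of all 4 pools (log2 ratio 1.54 ± 0.37, SD, n = 4 pools). The edgeR adjusted p of Arg1 was 0.708. Il4ra had a log2 ratio of 0.90 ± 0.21 (SD, n = 4 pools), Cish, a STAT target, of 1.13 ± 0.27, Jak2, a cytokine receptor kinase, of 1.03 ± 0.28, Hif1a of 1.14 ± 0.31 and Gja1 of 1.13 ± 0.29. Each of these was higher in the Pdcd1lg2-positive cells in 4 of 4 pools, and their edgeR adjusted p ran from 0.251 to 0.674. DESeq2 called Jak2, Hif1a, Il4ra and Gja1 but not Arg1 or Cish.

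Several genes known from resident macrophages had lower values in the Pdcd1lg2-positive cells. Lyve1, a hyaluronan receptor of perivascular macrophages, was at 5.12, 2.99, 0.90 and 20.9 CPM in the Pdcd1lg2-positive cells and 79.6, 33.4, 249.6 and 199 CPM in the other double-negative cells (log2 ratio -4.26 ± 1.87, SD, n = 4 pools). F13a1, a coagulation factor chain of macrophages, was at 172, 158, 97.3 and 134 CPM against 477, 565, 604 and 488 CPM. Neither gene overlapped between the populations, and their edgeR adjusted p was 0.18. C1qa was at 715, 1081, 1140 and 1101 CPM in the other double-negative cells and lower in the Pdcd1lg2-positive cells of all 4 pools, so C1qa stood between that population and the Ly6c2-high cells. The resident skin macrophage list had a median log2 fold change of -1.22 and the cell division list of -1.57, beside -0.11 for all genes. Mki67, a proliferation antigen, was at 32.7 to 54.7 CPM in the Pdcd1lg2-positive pools and Top2a at 1.80 to 18.8 CPM. Mrc1 and Retnla were at similar levels in the 2 populations, with log2 ratios of 0.25 ± 0.25 and -0.17 ± 0.62 (SD, n = 4 pools).

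The third comparison was with Gpnmb-positive cells, a later macrophage state by its marker, which numbered 8, 29, 5 and 3. They had Gpnmb at 50 CPM or more at any level of Pdcd1lg2. They thus include cells with both genes at 50 CPM or more, of which the library held 9, with or without a pool. Sums of fewer than 10 cells were left out, so 1 sum, WT day 5, stood for that population and was assumed to vary like the others. By edgeR's quasi-likelihood test with Benjamini-Hochberg adjustment 2 genes differed (0.0117%), with 1227 at an unadjusted p under 0.05 and 133 called by DESeq2. Both were lower in the Pdcd1lg2-positive cells. They were Dcn (decorin, a fibroblast matrix gene, log2 fold change -3.07, adjusted p = 0.0181) and Ly6e (-2.81, adjusted p = 0.0342). Neither passed with sums of at least 5 cells, at a Pdcd1lg2 limit of 100 CPM, at a hashtag ratio of 10, without the Siglech or Ccr9 cells or without the Ccr2-/- day 5 pool. The fibroblast markers summed to 4806 CPM in the Gpnmb-positive cells of WT day 5 and to 889 CPM in the Pdcd1lg2-positive cells, and the part of this in the result for Dcn was not tested. Chil3 was at 255 CPM against 2670 CPM in that pool (edgeR adjusted p = 0.104), Arg1 at 2496 against 2823 CPM and H2-Ab1 at 3957 against 931 CPM. Of the lists, type I interferon response genes had a median log2 fold change of -3.92, lipid handling genes of -1.40 and MHC class II genes of 1.95, beside 0.15 for all genes and with 0 genes called on each.

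Antigen presentation and lipid transport genes were higher on day 5 in the WT cells. Each day had 1 pool, so the values are described by size, over genes with 50 CPM and reads in 25% of cells in the higher pool. Of 4047 genes 240 were higher on day 5 by a log2 ratio over 1 (5.93%) and 253 lower by as much (6.25%). All 7 MHC class II genes were among the higher ones, among them H2-Ab1 at 1730 CPM on day 3 and 3957 CPM on day 5. The share of cells with Flt3, Ccr7 or Il4i1 was also higher on day 5, at 22.7% against 11.2%, and such cells had more H2-Ab1, as given above. The median H2-Ab1 level per cell was 285 CPM in all 125 cells of WT day 3 and 2749 CPM in all 66 of WT day 5. Without the cells with Flt3, Ccr7 or Il4i1 it was 232 CPM in 111 cells and 2259 CPM in 51 cells. The mean per cell was 1910 and 4692 CPM in all cells and 1335 and 3497 CPM without them. The part of these cells in the difference between days was not tested. Of 11 lipid handling genes 7 were higher and 0 lower. Apoe, the lipid carrier, was at 980 and 4215 CPM and Abca1, a cholesterol exporter, at 24.5 and 294 CPM, and the share of cells with 50 CPM or more of Abca1 went from 11.2 to 53.0%. These differences were not particular to the Pdcd1lg2-positive cells. In the other double-negative WT cells, without cells with Siglech or Ccr9, Apoe was at 2391 and 6847 CPM on days 3 and 5. Abca1 was at 168.7 and 409.8 CPM there. Lpl was at 60.2 and 449 CPM, but 1 cell held 61.7% of its day 5 reads.

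Of 11 monocyte genes 4 were lower in the WT cells on day 5, among them Ly6c2, Plac8 and Vcan, and 1 was higher, Cd14. Their median log2 ratio of -0.06 was close to the -0.07 of all genes. Of 4 type I interferon response genes Isg15, Irf7 and Usp18 were lower. Il1rap (the shared chain of interleukin-1 receptors) was at 172 CPM on day 3 and 19.5 CPM on day 5 and Ddx4 at 201 and 2.35 CPM. The largest positive log2 ratios were those of Abca1, Klc4, Gpr34, Pianp, Lpl, Pink1, Fbxl20 and Clec4n. Gpr34, a lysophosphatidylserine receptor of macrophages, was at 8.95 and 88.3 CPM and Clec4n (dectin 2) at 19.4 and 122 CPM. The largest negative log2 ratios included those of Ddx4, Aatf, Il1rap, Tnfrsf26, Nabp1, Osbpl3 and Usp18, with Usp18 at 64.4 and 8.98 CPM.

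In the Ccr2-/- cells the days were compared in the same way. Of 3916 genes 304 were higher (7.76%) and 253 lower (6.46%) on day 5. Of 12 chemokines 8 were lower and 0 higher, with a median log2 ratio of -1.10, and in WT 3 were higher and 3 lower of 11. Ccl2, Ccl7 and Ccl12 were lower on day 5 in both genotypes. Ccl2 was at 9740 and 3851 CPM, Ccl7 at 11269 and 5506 CPM and Ccl8 at 7733 and 3240 CPM on days 3 and 5. Of 9 lipid handling genes 2 were higher, and Apoe was at 861 and 469 CPM. None of the 6 MHC class II genes passed the limit, although their median log2 ratio was 0.85. The monocyte genes Ly6c2 and Vcan were lower on day 5 in this genotype as well. The difference between the genotypes in these changes was not tested.

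Between genotypes the cells differed in few genes by test. By edgeR's quasi-likelihood test with Benjamini-Hochberg adjustment, which had 1 residual degree of freedom, 2 of 12216 genes differed (0.0164%), with 847 at an unadjusted p under 0.05 and 140 called by DESeq2. They were Mcpt8, a basophil protease, and the unnamed transcript G530011O06Rik, given here because only 2 genes passed, both higher in Ccr2-/- (edgeR adjusted p = 0.0405 for each). Neither passed without the Siglech or Ccr9 cells or at a Pdcd1lg2 limit of 100 CPM. Mcpt8 was at 1.28, 2.35, 234 and 262 CPM, and 1 cell held 99.7% of its reads in Ccr2-/- day 5 and 54.2% in Ccr2-/- day 3. Mcpt8 is 1 of the 5 basophil markers whose sums are given above, so those sums are not separate from this result. The 5 markers summed to 76.9, 30.6, 591 and 295 CPM in the other double-negative cells. They summed to 67.25, 5.17, 435 and 747 CPM in the Ly6c2-high cells and to 4.53, 2.58, 0 and 25.4 CPM in the Gpnmb-positive cells. The part of basophil reads in the result was not tested. An interaction of genotype with the Ly6c2-high comparison gave 0 of 17143 genes (0.0%) by edgeR's quasi-likelihood test, with 1258 at an unadjusted p under 0.05. DESeq2 was not run for it.

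By size, 51 of 3492 genes were higher in Ccr2-/- by a log2 ratio over 1 at both days (1.46%) and 73 lower (2.09%). Cystm1, a small membrane protein, was at 52.3, 27.8, 188 and 229 CPM, and 20.8, 12.1, 61.0 and 57.6% of the cells had a read of it. The edgeR adjusted p of Cystm1 was 0.346. Tgm2 (transglutaminase 2, an interleukin-4 target) was at 66.8 and 63.3 CPM against 243 and 486 CPM, Alox5 (arachidonate 5-lipoxygenase) at 13.5 and 24.4 CPM against 53.4 and 157 CPM, and Cdk6 at 24.3 and 11.1 CPM against 95.5 and 71.3 CPM. Cd209a and Cd209e, lectins of the DC-SIGN family, were higher as well, Cd209a at 68.8 and 139 CPM against 296 and 574 CPM. Of 12 chemokines 5 were higher and 0 lower, namely Ccl2, Ccl3, Ccl4, Ccl7 and Ccl12. Ccl3 was at 24.3 and 44.3 CPM against 604 and 808 CPM, with 50.7 and 74.1% of the Ccr2-/- reads from 1 cell each.

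Genes lower in Ccr2-/- were Casp4 (an inflammatory caspase) at 66.3 and 93.2 CPM against 15.0 and 9.99 CPM, Apobec1 at 50.7 and 103 CPM against 12.3 and 9.53 CPM, Lst1 at 249 and 241 CPM against 64.3 and 50.4 CPM, and Stxbp6, Retnla, Stard8, Mgst1 and Ptpn18. Mgst1, a glutathione transferase of membranes, was at 83.4, 112, 23.7 and 16.8 CPM. Of 12 IL-4 and STAT6 response genes 3 were higher (Tgm2, Batf3 and Cdh1) and 2 lower (Retnla and Cd163), and of 5 PD-1 ligand and checkpoint genes 2 were lower (Vsir and Lgals9).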

How the data were processed

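Transcripts and hashtags of the same cells were sequenced by TAS-Seq on the BD Rhapsody system. The deposited values of both libraries are counts of reads: the authors trimmed reads (Cutadapt), aligned them to mouse RNA of build GRCm38.p6 (Bowtie2) and took as cells the barcodes before the knee plot's inflection point. Their methods also name a correction for RNA that diffuses between wells, whereas the matrix holds whole reads, so whether it was applied to these values is not known, and low levels may include such RNA. The matrix held 8953 barcodes, 35208 genes and 548117598 reads. The 9 hashtag columns that the labels do not name were not used.

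A barcode was given to the pool whose hashtag count, divided by the total of its column, was at least 3 times the next. This removes doublets of 2 pools, and doublets within a pool were not sought. CPM are reads over the barcode's or sum's total. Reads were summed per pool and population, sums of fewer than 10 cells were left out, and populations were compared with edgeR 4.0.16 (TMM, filterByExpr, quasi-likelihood test, pool as block, Benjamini-Hochberg adjustment over all genes tested) in R 4.3.3. DESeq2 1.42.0 was an alternative. Genotypes were compared with day as a term. The study's rank test over cells was not used, since cells are not replicates. Genes compared by size used log2 ratios with a pseudocount of 1 CPM. Shares have exact binomial and levels exact Poisson 95% intervals. Named genes were the 10 largest folds in each direction among called genes of the same sign in every pool and at least 50 CPM in the higher population, the 8 largest log2 ratios in each direction between days and between genotypes, and any gene of the 19 gene lists and 13 marker lists. In the genes named, predicted models and genes used to choose the cells were left out. The cells, gene lists and marker lists were chosen with earlier results of these data known. On simulated counts, the population test recovered 97 of 100 genes changed 16-fold and 20 of 100 changed 4-fold (15897 genes), and the genotype test 35 and 2 of 100 (12194 genes). The simulation gave every gene the median dispersion, changed only better expressed genes and gave the genotype counts no day effect. Its rates therefore need not hold for the real counts. Promoters are from RefSeq (GRCm38.p6), gene positions from GENCODE M21. Some genes that the rule names are not reported here.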

Additional observations from a re-analysis of the deposited data

Results flagged for a closer look

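Among the genes given in all 4 pools, 8 went one way between days in the WT cells and the opposite way in the Ccr2-/- cells, with counting intervals of the days that did not overlap in either genotype. The day 5 minus day 3 log2 ratio in WT and in Ccr2-/- was 0.16 and -1.21 for Arg1, 0.04 and -2.11 for Retnla, 0.90 and -1.25 for Ccl8, 0.89 and -1.45 for Ccr2, 0.62 and -0.60 for Lyz2, 0.64 and -2.93 for Enpp2, 2.1 and -0.88 for Apoe, and -0.89 and 0.28 for Cystm1. Each day and genotype had 1 pool, so the difference was not tested. The genes looked at were those chosen for the text, and the share of all genes with opposite directions was not counted. The 8 are therefore not a result about these genes, and the intervals cover counting error of reads only. The WT values of Arg1 and Retnla are close to 0, and 1 cell held 52.3% of the Retnla reads in Ccr2-/- day 3.

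Cells outside the comparisons also carried signal. A pool could not be given to 14 Pdcd1lg2-positive cells (5.02% of them). Outside the Mo-Mac cells, 97 kept cells had Pdcd1lg2 at 50 CPM or more, 83 of them because the 4 monocyte and macrophage genes summed to too little. Of the 97, 33 had the neutrophil receptor gene Csf3r at 50 CPM or more, 18 the mast cell and basophil protease gene Cpa3, 17 Mcpt8, 15 Arg1 and 1 Ddx4.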

How the results depend on the processing

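The shares, gene counts and named genes were recomputed under each alternative, and settings that leave out cells with Siglech or Ccr9 or that use sums of at least 5 cells were chosen after the data were seen. Of 30 share values 28 moved by less than the spread. As shares of all kept cells the genotype difference was 5.344 points and the WT day difference -1.7 points.

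Against Ly6c2-high cells the 399 calls became 1796 with DESeq2, 712 without a filter on low counts, 252 at a Pdcd1lg2 limit of 100 CPM, 211 without cells with Flt3, Ccr7 or Il4i1, 99 with sums of at least 5 cells, 42 without Siglech or Ccr9 cells and 13 with both. Leaving out 1 pool at a time gave 59 to 282 calls (59 without WT day 5, 66 without Ccr2-/- day 3, 118 without Ccr2-/- day 5). Without the Siglech or Ccr9 cells the log2 fold changes of 4 genes turned, to 0.37 for Ccr9, 6.86 (5.88 with sums of at least 5 cells) for Cox6a2, 2.79 for Klk1 and 6.14 for Slco4a1.

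Against Gpnmb-positive cells the 2 calls became 133 with DESeq2, 25 without a filter, 1 with library sizes only, 1 without Flt3, Ccr7 or Il4i1 cells and 0 at 100 CPM, with sums of at least 5 cells or without Siglech or Ccr9 cells at either sum size. Leaving out a pool gave 0 to 4. Without WT day 5 no sum was left. Against other double-negative cells the 0 calls became 116 with DESeq2, 16 without a filter and 1 without Siglech or Ccr9 cells at either sum size. Leaving out a pool gave 0 to 2. The 2 genotype calls became 140 with DESeq2, 243 without a filter, 7 with Col1a1 under 500 CPM, 7 at a hashtag ratio of 10, 7 with library sizes only, 0 at 100 CPM and 0 without Siglech or Ccr9 cells. Leaving out a pool leaves no residual degree of freedom there and was not run. The interaction gave 105 calls without a filter and 0 when each pool was left out. It could not be estimated without Siglech or Ccr9 cells at 10 cells a sum.

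Of 517 values of named genes under alternatives, 402 kept their direction and side of the threshold, 103 lost the call, 7 gained it and 5 changed sign. Of 48 marker gene levels 25 moved beyond the counting interval. The causes were not tested. The edgeR comparison of genotypes had day as a term, which pairs the pools by day. The permutation test of the shares did not use this pairing. No combination of genotype and day had a second pool. The pool was already the block between populations.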
